A study of Mus musculus with 24 samples.

Results

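Of the 6 groups of mice in this series, 4 had been exposed to chronic social defeat and 2 were unstressed control mice, which are described here. The DEX response of the control animals was measured as the difference between 4 mice given 2 mg/kg of the synthetic glucocorticoid dexamethasone (DEX) and 4 mice given saline, both by intraperitoneal injection, so that 8 of the 24 libraries of the prefrontal cortex (PFC) form the comparison. All 14074 genes of the table were compared. The mice were adult males of the C57BL/6 strain, and tissue was taken 6 h after the injection. Controls had not been confronted with an aggressor, whereas the PS (passive coping) and AS (active coping) animals had been stressed for 30 days and were split by behaviour, with 4 saline-treated and 4 DEX-treated mice each. Controls were housed singly before the experiment and assigned to saline or DEX at random. Each mouse gave 1 library of poly(A) RNA from a block of frontal cortex that holds several areas and all cell types of the tissue. In such bulk samples, fewer cells of a type and less RNA per cell cannot be told apart. The saline-treated controls were mice 106, 107, 109 and 117 and the DEX-treated controls mice 101, 108, 112 and 122, and values per library are given in this order.

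DEX binds the glucocorticoid receptor (GR), a cytosolic protein held by heat shock chaperones that moves to the nucleus once it carries a ligand. There it binds DNA as a dimer at inverted repeats of a short site and raises the transcription of nearby genes, and it lowers that of others, in part by acting on other transcription factors. In brain, GR is found in neurons, glia and vessel cells, and its induced genes include feedback regulators of the receptor, transporters and enzymes of lipid, glycogen and amino acid metabolism.

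The control libraries held 21121869 to 24753489 reads on genes, and replicates within a group differed by more than sampling noise (chi-square per gene between 5.74 and 33.1). Markers of excitatory cortical neurons were high in each group, with a mean of 48237 normalized counts of Slc17a7, the vesicular glutamate transporter of these cells, after saline and 47559 after DEX. The 9 markers of choroid plexus looked for had no row in the table. In a principal component analysis of the 8 control libraries, the first component (36.8% of the variance) held all 4 saline libraries on one side and all 4 DEX libraries on the other. Saline mouse 117 and DEX mouse 101 lay farthest from the rest of their groups.

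In control animals, DEX raised 567 genes (4.03%) and lowered 346 (2.46%), together 913 of the 14074 genes (6.49%). Expression was compared as log2(normalized count + 1) with limma, with p-values adjusted by Benjamini-Hochberg over all genes, and a gene was called where this p was under 0.1, the threshold of the study. All fold changes are taken from that scale, on which the change of a gene with few counts is understated, and sizes given without the word fold are in log2 units. Most changes were small. The median rise was 0.48 and the median fall -0.41 on the log2 scale, while the median over all genes was -0.01. Of all 14074 genes, called or not, 6625 had a positive and 7447 a negative log2 fold change. Genes of a list can move together, and the signs of lists given below were not tested. A change of at least 2-fold was reached by 66 of the genes that rose and 34 of those that fell. The groups of 4 did not overlap in 491 of the 567 and 256 of the 346 genes, against 1425 genes without overlap in the whole table (10.1%), 5.81% with DEX above and 4.32% with DEX below. The number of calls was lowest, at 611, without DEX mouse 101, where 377 rose, while 198, 227 and 228 genes fell without saline mouse 106, saline mouse 107 and DEX mouse 108, and 426 genes were called whichever single control library was left out, 304 that rose and 122 that fell.

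**Figure D1:**
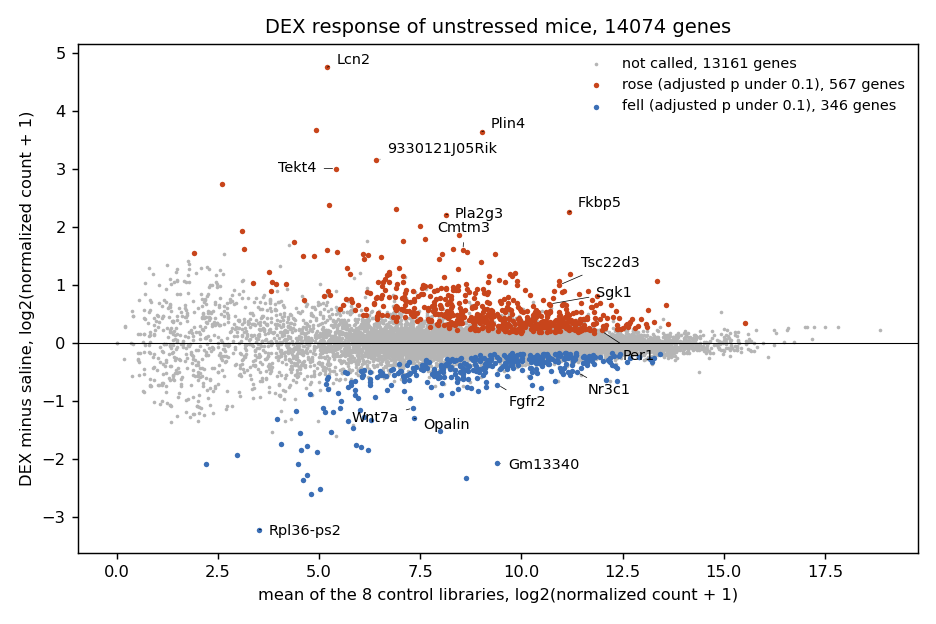
Change after DEX in control mice against level, for 14074 genes. The horizontal axis is the mean of the 8 control libraries and the vertical axis DEX minus saline, both as log2(normalized count + 1). Each point is a gene, orange where it rose (567), blue where it fell (346) and grey where it was not called. The labelled rises of Lcn2 (4.76), Plin4 (3.65) and Fkbp5 (2.26) stand out, while 66 genes rose and 34 fell by at least 2-fold, and at very low counts a change depends on the pseudocount of 1.

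The labels of treatment were checked first with known targets of GR. Fkbp5 (mm10 chromosome 17, 28399094 to 28517527), which encodes a co-chaperone that lowers the affinity of GR for its ligand, had 773, 761, 888 and 762 normalized counts in the saline libraries and 4198, 3908, 3447 and 3727 in the DEX libraries. The groups were far apart, and saline mouse 109 was the highest of its group. The gene rose 4.79-fold (log2 2.26, SE 0.11, limma adjusted p = 9.31e-13), the smallest p of all genes. Tsc22d3, the leucine zipper protein GILZ that carries many anti-inflammatory effects of glucocorticoids, had 1222, 1211, 1383 and 1384 with saline and 2917, 2411, 2506 and 2573 with DEX. The ranges did not overlap, and the 95% interval of the log2 fold change ran from 0.81 to 1.19 (SE 0.09, limma adjusted p = 1.11e-07). Sgk1, a kinase that controls ion channels and transporters, had 1272, 1174, 1306 and 1303 with saline and 1845, 2289.5, 2329 and 1669 with DEX, where mice 101 and 122 were lower than mice 108 and 112 but above every saline library. Its log2 fold change was 0.67 (SE 0.10, limma adjusted p = 0.00018). Per1, a clock gene with a known GR site, had 3437, 3831, 3701 and 3881 with saline and 4388, 4177, 3828 and 4861 with DEX, overlapping ranges, and was not called (log2 fold change 0.21, SE 0.08, limma adjusted p = 0.18), except without DEX mouse 112.

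Of 31 GR targets in the table, 24 were called and all 24 rose (77.4% of the list called, against 4.03% of all genes that rose). All 31 had a positive log2 fold change, with a median of 0.65. The list was drawn from general knowledge of GR with earlier results of these data known, so its direction is not independent evidence. Arrdc2, an arrestin-related protein, rose 2.42-fold. Cdkn1a, an inhibitor of cell cycle kinases, rose by 1.19, Map3k6, a stress kinase, by 1.44, Hif3a, a member of the hypoxia-inducible factor family, by 1.40, and Rasd1, a small G protein induced by dexamethasone, by 1.29 on the log2 scale. Sult1a1, a sulfotransferase, had 159, 182, 273 and 198 with saline and 743, 606, 492 and 565 with DEX, a log2 fold change of 1.57. The zinc finger factors Zbtb16, Klf9 and Klf15 rose by 0.67, 0.42 and 0.57. The 7 targets that were not called were Per1, Dusp1, Errfi1, Pdk4, Cebpb, Bcl6 and Gpd1, with log2 fold changes between 0.07 and 0.24. With each control library left out in turn, 22 to 24 of the list were called.

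**Figure D2:**
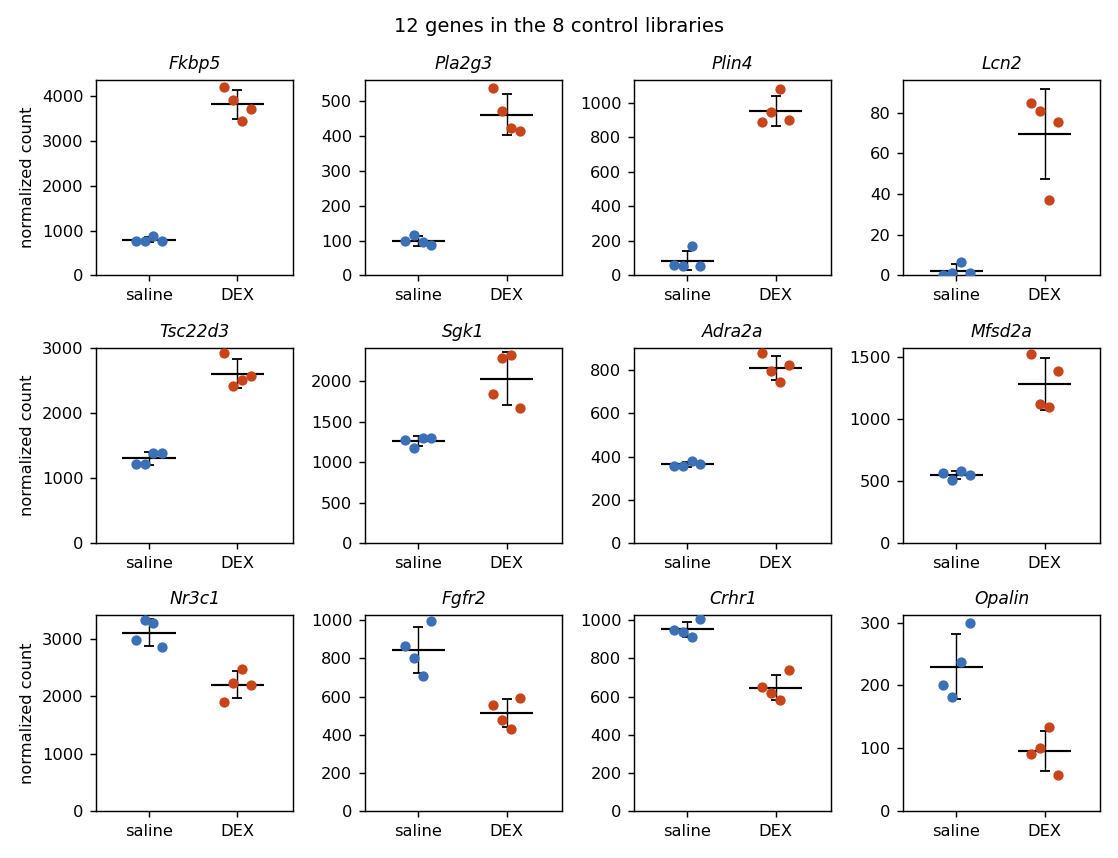
Normalized counts of 12 genes in the 8 control libraries. Each point is a mouse, blue with saline and orange with DEX, bars mark the mean and whiskers the SD (n = 4), and the vertical axes start at 0. In each panel the 2 groups do not overlap, with the first 8 genes higher and Nr3c1, Fgfr2, Crhr1 and Opalin lower after DEX.

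The GR element was looked for in the 250 bases before and 50 bases after annotated starts, as RefSeq gives them for GRCm38.p6. It was taken as the sites GNACA and TGTNC with 3 bases of any kind between them, which reads alike on both strands. A window was available for 10029 of the genes tested, and 42 of them (0.419%) held the element. It was in 11 of the 435 genes that rose (2.53%), in 1 of the 233 that fell (0.429%) and in 30 of the 9361 that were not called (0.32%). Among genes that rose at least 2-fold, 2 of 38 held it (5.26%). A single site, AGAACA or TGTTCT, was in 17.2% of the genes that rose, in 17.6% of those that fell and in 14.5% of all. These are counts of letters in short windows and no test was made of them. The search of all genes that rose was added after the named genes had been searched. The windows of 15 genes were searched first, and among these Sgk1 held the whole element, whose first base lies 188 bases before the start. The 250 bases before that start (chr10:21993640-21993889, plus strand) are shown with the element in capitals, because this gene rose and its window holds the full element.
Sgk1: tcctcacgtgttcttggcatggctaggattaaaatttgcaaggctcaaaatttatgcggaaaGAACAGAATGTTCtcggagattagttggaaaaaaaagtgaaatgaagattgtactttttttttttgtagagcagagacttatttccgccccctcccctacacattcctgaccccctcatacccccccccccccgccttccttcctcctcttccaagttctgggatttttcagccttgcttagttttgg

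The other 10 genes that rose and held the element are shown as 51 bases each, read 5′ to 3′ on the strand of the gene, with the element in capitals, so that the repeats can be compared. All lie before the annotated start.
Map3k6 (chr4:133240618-133240668, plus strand): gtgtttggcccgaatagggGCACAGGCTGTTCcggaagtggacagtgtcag
Suox (chr10:128673933-128673983, minus strand): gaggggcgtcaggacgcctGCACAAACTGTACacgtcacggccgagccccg
Fam107a (chr14:8309866-8309916, minus strand): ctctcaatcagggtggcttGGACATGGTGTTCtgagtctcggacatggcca
Mt1 (chr8:94178976-94179026, plus strand): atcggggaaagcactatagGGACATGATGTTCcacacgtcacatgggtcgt
Kcna5 (chr6:126535583-126535633, minus strand): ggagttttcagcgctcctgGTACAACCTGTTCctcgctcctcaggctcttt
Car14 (chr3:95904879-95904929, minus strand): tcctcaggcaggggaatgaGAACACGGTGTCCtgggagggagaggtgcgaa
Txnip (chr3:96557766-96557816, plus strand): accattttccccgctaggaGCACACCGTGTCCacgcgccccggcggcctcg
Tinagl1 (chr4:130174918-130174968, minus strand): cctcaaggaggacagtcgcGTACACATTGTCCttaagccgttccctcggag
Limd2 (chr11:106160880-106160930, minus strand): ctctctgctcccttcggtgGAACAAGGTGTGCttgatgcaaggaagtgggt
Serpina3n (chr12:104406611-104406661, plus strand): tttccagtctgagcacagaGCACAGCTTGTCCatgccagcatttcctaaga

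In these genes the rise ranged from 0.35 to 1.44 on the log2 scale, the largest in Map3k6. They include Suox, sulfite oxidase, Car14, a membrane carbonic anhydrase, Serpina3n, a secreted protease inhibitor of reactive astrocytes, and Txnip, an inhibitor of thioredoxin and glucose uptake. The rises of Tinagl1, Limd2 and Serpina3n were not called without DEX mouse 101, and those of Limd2 and Serpina3n also not without saline mouse 107, DEX mouse 108 or DEX mouse 122 or in a fit of only the 8 control libraries, nor that of Limd2 without saline mouse 109 or that of Serpina3n without saline mouse 117. Map3k6, Mt1 and Sgk1 were also among the GR targets listed above. What the element does in these windows was not tested.

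Expression of the receptors themselves fell. Nr3c1 (mm10 chromosome 18, 39410545 to 39519421), the GR gene, had 2972, 3336, 3271 and 2867 with saline and 1894, 2239, 2469.5 and 2203 with DEX, without overlap, and its log2 fold change was -0.50 (SE 0.10, limma adjusted p = 0.00275). Nr3c2, the mineralocorticoid receptor, which binds corticosterone with high affinity, had 1139, 1113, 1187 and 1045 with saline and 842, 883, 977 and 957 with DEX. Its log2 fold change was -0.29 (SE 0.09, limma adjusted p = 0.0679), and it was not called without any one of saline mice 106, 107 and 109 and DEX mice 101 and 108. Of 20 receptors, chaperones and coregulators in the table, 1 rose (Fkbp5) and these 2 fell (15% called, against 6.49% of all genes). The chaperones that hold GR and the co-chaperone Fkbp4 were not called, with log2 fold changes of -0.13 for Hsp90aa1, -0.12 for Hsp90ab1 and -0.22 for Fkbp4, although Fkbp4 was called in a fit of only the 8 control libraries and without saline mouse 109, and Hsp90ab1 in DESeq2 and with quantile normalization. Among 22 circadian clock genes, Ciart, a repressor in the clock, and Hlf, a clock output factor, rose by 0.42 and 0.27, and 0 fell (9.09% called). Ciart was not called without saline mouse 107 or DEX mouse 101, 108 or 112, Hlf was not called without saline mouse 106, 107 or 117 or DEX mouse 108, 112 or 122, and 1 clock gene fell without saline mouse 109. Under the settings that kept all control libraries, 2 to 3 clock genes rose and 0 to 2 fell. The core genes Per2, Cry1, Clock and Arntl were not called (log2 fold changes of 0.20, 0.07, 0.09 and 0.11).

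Several of the strongest rises were in genes outside the list of GR targets. Pla2g3 (mm10 chromosome 11, 3488284 to 3499350), a secreted phospholipase, had 97.2, 117, 95.0 and 85.7 with saline and 539, 472, 423 and 414 with DEX. All DEX libraries exceeded all saline libraries several-fold, and the log2 fold change was 2.22 (SE 0.12, limma adjusted p = 2.01e-11). The lncRNA 9330121J05Rik had 13.5, 14.8, 17.0 and 19.96 and 175, 158, 138 and 141, a low gene with narrow groups, and rose by 3.16 (SE 0.21, limma adjusted p = 1.05e-09). Cmtm3, a membrane protein of the MARVEL family, rose 3.03-fold, Smim3, a small membrane protein, 3.66-fold and Pkp2, a plaque protein of desmosomes, 3.08-fold. Wipf3, an actin regulator with a high count, had 7338, 6448, 6789 and 6268 with saline and 15126, 13773, 13580.1 and 13681 with DEX. Its log2 fold change was 1.07 (SE 0.08), and DEX mouse 101 stood above the other DEX mice, which were close together. Castor1, an arginine sensor of the mTOR pathway, rose 3.38-fold, Alox12b, a lipoxygenase, 2.90-fold, Lrg1, a secreted glycoprotein of vessels, 3.46-fold and Fmo2, a flavin monooxygenase, 4.07-fold. Groups did not overlap in any of these genes, and each was called in each alternative that gave it a value.

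The largest fold changes were in genes with few counts. Lcn2, the iron-binding lipocalin of the acute phase, had 0, 1.23, 6.79 and 1.17 with saline and 84.9, 80.7, 36.9 and 75.5 with DEX. The saline values correspond to at most 6 reads, DEX mouse 112 was lowest of its group, and the log2 fold change was 4.76 (SE 0.57, limma adjusted p = 5.95e-06). The lncRNA Gm11827 had 1.35, 3.69, 5.66 and 3.52 with saline and 74.4, 56.6, 38.1 and 49.96 with DEX, a log2 fold change of 3.67 (SE 0.36). Tekt4, a filament protein of motile cilia, had 10.8, 1.23, 15.8 and 14.1 and 102, 61.4, 71.5 and 59.3, and rose by 3.01, while the other 3 motile cilium markers with a row, Rsph1, Tekt2 and Drc1, were not called (-0.05, 0.47 and 0.03). Tmem52, a membrane protein, and Gm19439, a transcript of unresolved class, rose by 2.39 and 2.32. Gm42891, another lncRNA, had at most 3 reads in each saline library and was at least 2.59-fold higher after DEX. Over gene classes, 28 of 853 lncRNAs rose and 12 fell (4.69% called), 524 protein-coding genes rose and 303 fell (6.81%), against 6.49% of all genes, and of 236 miRNA genes, which poly(A) libraries capture poorly, 0 rose and 1 fell.

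Of 39 genes of lipid storage and lipid use in the table, 9 rose and 0 fell (23.1% called, against 4.03% of all genes that rose, and 7 to 12 rose with single libraries left out), and the median was 0.02. Plin4 (mm10 chromosome 17, 56100591 to 56109803), which coats lipid droplets, had 59.4, 56.6, 169.7 and 55.2 with saline and 889, 945, 1081 and 902 with DEX. Saline mouse 109 was about 3 times as high as the other saline mice and still far below every DEX library. Its log2 fold change was 3.65 (SE 0.30, limma adjusted p = 2.48e-08). Pnpla2, the lipase that starts the breakdown of triglycerides, had 671, 553, 640.4 and 605 with saline and 1446, 1318, 1172 and 1245 with DEX and rose by 1.07 (SE 0.10, limma adjusted p = 3.08e-07). Ucp2, a carrier of the inner mitochondrial membrane, rose 2.24-fold, Angptl4, an inhibitor of lipoprotein lipase, 2.35-fold and Acadl, a dehydrogenase of fatty acid oxidation, 1.31-fold. Pnpla2 and Angptl4 are also on the list of GR targets. The coat protein gene Plin2 and the lipoprotein lipase gene Lpl were not called (-0.31 and -0.01).

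Among 38 genes of cholesterol synthesis, uptake and export, 3 rose and 2 fell (13.2% called, against 6.49% of all genes). Fdft1, squalene synthase, had 2351, 2564, 2385 and 2263 with saline and 3508, 3246, 3096 and 2890.5 with DEX and a log2 fold change of 0.41 (SE 0.08, limma adjusted p = 0.00137). Abca1, which exports cholesterol, and Apod, a lipid-binding apolipoprotein, rose by 0.53 and 0.63, and Srebf2, the master factor of sterol synthesis, had a log2 fold change of -0.24. Apod was not called without saline mouse 106, 107 or 109 or DEX mouse 101, 108 or 122. Fdft1 was called in each alternative that gave it a value, while 1 of this list rose without saline mouse 107 or DEX mouse 122, 0 fell without saline mouse 106, saline mouse 107 or DEX mouse 101, and 1 fell without DEX mouse 108, 112 or 122. In sphingolipid metabolism, 7 of 41 genes rose and 4 fell (26.8% called). Spns2, which exports sphingosine-1-phosphate, had 1401, 1446, 1455 and 1460.4 with saline and 2752, 2709.9, 2559 and 2543 with DEX. The spread within groups was small, and the log2 fold change of 0.87 (SE 0.07, limma adjusted p = 7.45e-09) had the fifth smallest p of all genes. S1pr1, a receptor of the same lipid, had 3959, 3321, 3413 and 3304 and 3219, 2721, 2319 and 2990.4, and its log2 fold change was -0.32, a call lost without saline mouse 106 or DEX mouse 112 and in a fit of only the 8 control libraries. The ceramidase Asah1 and the glucosylceramidase Gba2 rose by 0.29 and 0.25, and Fa2h, which makes the hydroxylated fatty acids of myelin lipids, had a log2 fold change of -0.60. The number of the sphingolipid genes that rose was 3 without saline mouse 107 or DEX mouse 108 and 4 without DEX mouse 101. The number that fell was 1 without saline mouse 106 and 2 without DEX mouse 101.

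**Figure D3:**
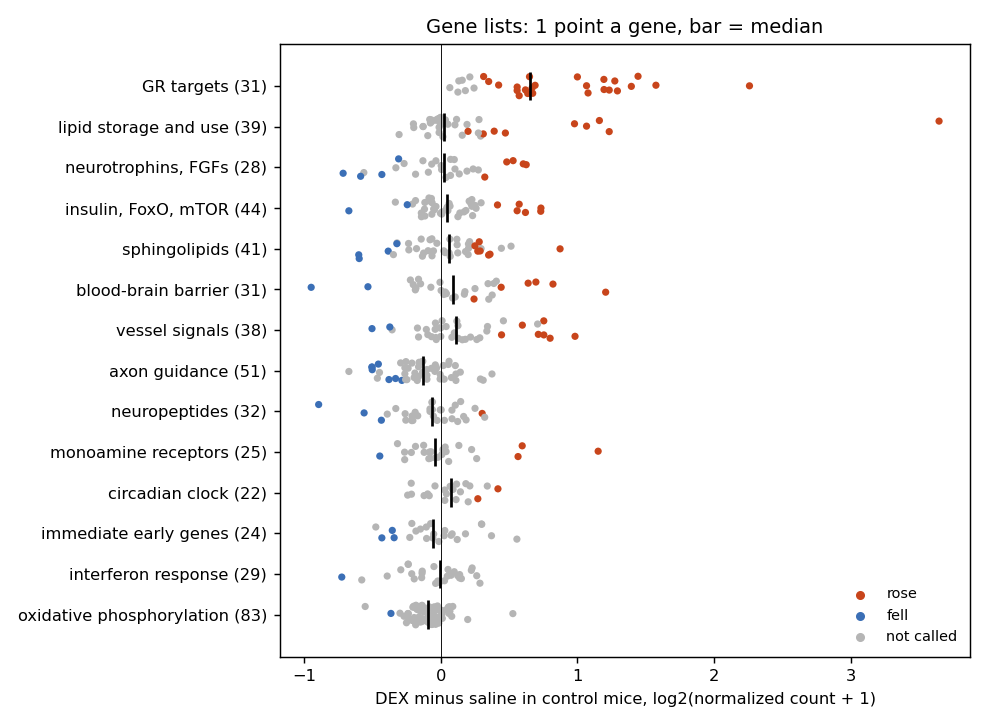
DEX minus saline in control mice, as log2(normalized count + 1), for the members of 14 gene lists. Each point is a gene, orange where it rose, blue where it fell and grey where it was not called, bars mark the list medians and the number in brackets is the number of genes in the table. GR targets all lie above 0 with a median of 0.65, whereas the medians of the other lists lie between -0.13 and 0.11.

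In the list of insulin, FoxO, PI3K and mTOR regulators, 6 of 44 rose and 2 fell (18.2% called, against 6.49% of all genes). Among the 6 that rose, Ddit4, Sesn1 and Klf15 are also on the list of GR targets. Ddit4, which restrains mTOR, had 574, 594, 626 and 758 with saline and 1034, 1007, 948 and 915 with DEX, a log2 fold change of 0.62 (SE 0.10, limma adjusted p = 0.000244). Sesn1, a stress-induced inhibitor of the same kinase, had 1347, 1328, 1375 and 1368 and 2014, 2038, 1953 and 1977, narrow groups that did not overlap, and rose by 0.56. Igf1r, the IGF receptor, and Igfbp3, an IGF-binding protein, rose by 0.42 and 0.73 and Txnip by 0.73. Akt2, a kinase below the insulin receptor, and Foxo6, a FoxO factor of neurons, had log2 fold changes of -0.25 and -0.67. Akt2 was not called without saline mouse 106 or 107 or DEX mouse 108 or 112, nor Foxo6 without DEX mouse 101. Of the 24 genes of glutamate, glutamine and glycogen handling, 5 rose and 0 fell (20.8% called). Gjb6, a gap junction protein of astrocytes, had 1316, 1112, 1382 and 1188 with saline and 2889, 2165, 1889 and 2456 with DEX (log2 fold change 0.90, SE 0.12, limma adjusted p = 1.69e-05), with DEX mouse 101 the highest. Ppp1r3c, which targets a phosphatase to glycogen, was 632, 634, 631 and 632 with saline, nearly the same in 4 mice, and 1032, 836, 838 and 964 with DEX, a log2 fold change of 0.53. Glul, glutamine synthetase, which is also on the list of GR targets, rose by 0.35 and was not called in a fit of only the 8 control libraries. The glycogen phosphorylase Pygm and the glycogen-targeting subunit Ppp1r3g rose by 0.31 and 0.34, and neither was called without saline mouse 107 or 109 or DEX mouse 101 or in a fit of only the 8 control libraries, nor Pygm without saline mouse 106 or DEX mouse 122, nor Ppp1r3g without saline mouse 117 or DEX mouse 108. The glutamate transporters Slc1a2 and Slc1a3 were not called (0.17 and 0.14).

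The zinc-binding metallothioneins Mt2 and Mt1 rose, whereas Mt3, the form typical of brain, was not called (log2 fold change -0.01). Mt2 had 1571, 1168, 1388 and 1583 with saline and 4221, 2846, 2785 and 3312 with DEX, and Mt1 3329, 2575, 2971 and 3140.4 and 6080.3, 4201, 3920.0 and 5419.7. The groups did not overlap for either gene, and the log2 fold changes were 1.19 (SE 0.15, limma adjusted p = 9.94e-06) and 0.69 (SE 0.13, limma adjusted p = 0.00222). Of 208 solute carriers, 17 rose and 5 fell (10.6% called, against 6.49% of all genes), with 10 rising without DEX mouse 101, 11 without saline mouse 117 or DEX mouse 108, and fewer falling (1 to 4) without any single library. The mitochondrial carriers Slc25a34 and Slc25a33 rose by 0.82 and 0.46, and the zinc transporter Slc39a12 of astrocytes by 0.39. Among 37 heat shock proteins and co-chaperones the small heat shock proteins Hspb8 and Hspb1 rose, by 0.82 and 0.59, and 0 fell (5.41% called, near the share of all genes). Hspb1 was not called without saline mouse 106, 107 or 109 or DEX mouse 101 or 122, nor in a fit of the control libraries alone, and Hspb8 was called in each alternative that gave it a value. Without saline mouse 109 or DEX mouse 112, 1 gene of this list fell.

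Genes of vessels were next examined. Of 31 genes of blood-brain barrier junctions and transporters, 6 rose and 2 fell (25.8% called, against 6.49% of all genes). Mfsd2a, the lipid transporter that restrains transcytosis in brain endothelium, had 567, 509, 580.5 and 549 with saline and 1529, 1121, 1104 and 1387 with DEX, where mice 101 and 122 were highest. The log2 fold change was 1.21 (SE 0.13, limma adjusted p = 1.12e-06). Slc2a1, the glucose transporter of the barrier, had 2459, 2674, 3139.9 and 2518 and 5572, 4497, 4266 and 4745, without overlap, and rose by 0.82 (SE 0.13, limma adjusted p = 0.000273). Abcg2, an efflux pump, rose by 0.44 and the amino acid transporter Slc7a5 by 0.24. Among 38 VEGF, angiopoietin, Notch and BMP signals, 7 rose and 2 fell (23.7% called). Notch4, the Notch receptor of endothelium, had 212, 219, 302 and 199.6 with saline and 519.7, 459, 378 and 477 with DEX, a log2 fold change of 0.98 (SE 0.16, limma adjusted p = 0.000296). Ramp2, which joins Calcrl to form the adrenomedullin receptor, rose by 0.71, the ligand Adm by 0.75 and endothelin 1, Edn1, by 0.80, while the endothelin receptor Ednrb had a log2 fold change of -0.37. The collagen IV genes Col4a1 and Col4a2, which are neighbours that encode the basement membrane of vessels, rose by 0.66 and 0.48, 2 of 41 collagens, laminins and integrins (4.88% called, near the share of all genes), of which Col4a1 alone was called without saline mouse 106, 107 or 117 or DEX mouse 101 or 108. Vegfa, the main growth factor of vessels, and its receptor Kdr were not called (log2 fold changes of -0.11 and 0.34).

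These counts moved with single libraries. For the barrier list, 3 genes rose without saline mouse 106, saline mouse 117, DEX mouse 101 or DEX mouse 108, 0 fell without saline mouse 107, saline mouse 109 or DEX mouse 108 and 1 fell without saline mouse 117 or DEX mouse 101 or 112. For the vessel signals, 2 rose without saline mouse 106 and 3 without saline mouse 117 or DEX mouse 101, 108 or 122, 0 fell without saline mouse 117 and 1 fell without saline mouse 107 or 109 or DEX mouse 101 or 108. Of the genes named, Mfsd2a, Slc2a1, Abcg2, Notch4, Ramp2 and Col4a1 were called whichever single library was left out, and Slc7a5, Adm, Edn1, Ednrb and Col4a2 were not (Adm without saline mouse 106 or DEX mouse 122, Ednrb without saline mouse 117, Edn1, Slc7a5 and Col4a2 without saline mouse 106, saline mouse 117 or DEX mouse 101, among others). Of 16 endothelial markers, 14 had a positive log2 fold change, with a median of 0.35, but 1, Slc2a1, was called (6.25%, near the 6.49% of all genes). Of this list 2 rose without saline mouse 109 or DEX mouse 112, with quantile normalization or in DESeq2, and 4 in a fit of only the 8 control libraries. Their summed level was 11450 to 15080 normalized counts in saline libraries and 14160 to 20270 in DEX libraries, highest in DEX mouse 101, and the ranges overlapped. For 14 markers of leptomeningeal fibroblasts, the cells of the brain surface, the median was 0.36, with 13 positive and 2 called, and the sums were 28160 to 38990 and 35960 to 58940. The 2 calls were both lost without saline mouse 106 or 117 or DEX mouse 101, 108 or 122, and 1 was lost without saline mouse 107, in edgeR and in DESeq2. The 13 pericyte and smooth muscle markers had a median of 0.25 with 0 called by limma (2 at an unadjusted p under 0.05), and the 5 red blood cell markers sums of 1575 to 2687 with saline and 1625 to 4386 with DEX. The 0 calls of the pericyte and smooth muscle list became 1 without DEX mouse 112 or in a fit of only the 8 control libraries. The part of these cell types in the vessel results was not tested.

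**Figure D4:**
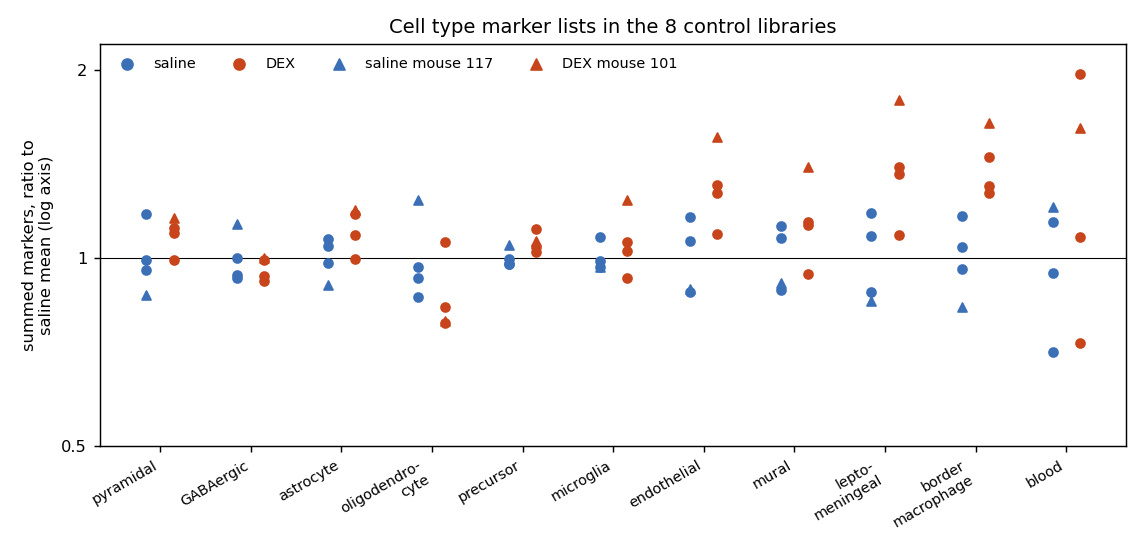
Summed normalized counts of 11 cell type marker lists in the 8 control libraries, divided by the mean of the 4 saline libraries, on a log axis. Each point is a library, blue with saline and orange with DEX, and triangles are saline mouse 117 and DEX mouse 101. DEX mouse 101 is the highest library for endothelial, mural (pericyte and smooth muscle) and leptomeningeal markers, and saline mouse 117 for oligodendrocyte markers.

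Of 16 oligodendrocyte markers, 5 fell and 0 rose (31.3% called, against 2.46% of all genes that fell), with a median of -0.31. Opalin, a membrane protein of mature oligodendrocytes, had 199.8, 182, 238 and 299 with saline and 90.1, 99.96, 133 and 56.9 with DEX, and Aspa, which splits N-acetylaspartate, 157, 176, 201 and 272 and 99.2, 96.4, 112 and 101. In both genes saline mouse 117 was highest and the groups did not overlap. The log2 fold changes were -1.30 (SE 0.25, limma adjusted p = 0.0021) and -0.94 (SE 0.16, limma adjusted p = 0.00056). Ermn, Fa2h and Mag, a cytoskeletal protein, a lipid enzyme and an adhesion protein of myelin, had log2 fold changes of -0.86, -0.60 and -0.51, whereas the abundant myelin gene Mbp was not called (-0.29). The summed level of the list was 40430 to 57800 in saline libraries, highest in mouse 117, and 36610 to 49450 in DEX libraries. Without saline mouse 117, DEX mouse 101 or DEX mouse 122, 3 markers fell. Whether the level of this cell type in single libraries played a part in these falls was not tested. Opalin, Aspa and Fa2h were called whichever single library was left out, while Mag and Ermn were lost without each of these 3, and Mag also without saline mouse 106 or DEX mouse 108.

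Among 16 astrocyte markers 4 rose (25% called, against 6.49% of all genes) and 15 had a positive sign, with a median of 0.17. Gjb6 is given above, Fgfr3, a growth factor receptor of astrocytes, had 2937, 2859, 3131 and 2746 with saline and 4798, 3961, 3816 and 4319 with DEX (log2 fold change 0.53, SE 0.07, limma adjusted p = 9.96e-06), and Aldh1l1 rose by 0.30, a call lost without saline mouse 107, 109 or 117 or DEX mouse 101, among others. Without DEX mouse 112, 7 astrocyte markers rose. Gfap and Aqp4, the intermediate filament and the water channel of astrocytes, were not called (0.05 and -0.05). Of 12 markers of oligodendrocyte precursors, 3 rose and 1 fell (33.3% called, against 6.49% of all genes), with 0 falling without saline mouse 106, 107 or 117 or DEX mouse 108 or 122 and 2 without saline mouse 109. Pdgfra, among the 3 that rose, is also among the 2 leptomeningeal calls. Neu4, a sialidase, had 182, 209, 201 and 199.6 with saline and 307, 319, 303 and 323 with DEX and rose by 0.66 (SE 0.09, limma adjusted p = 2.98e-05), and it was the only one of the 3 that also rose without saline mouse 106, saline mouse 117, DEX mouse 108 or DEX mouse 122. Of 16 microglia markers, P2ry12, the ADP receptor of resting microglia, and Aif1, an actin-bundling protein, fell and 1 other rose (18.75% called). P2ry12 had 1006, 1037, 1069 and 969 with saline and 838, 766, 692 and 752 with DEX, a log2 fold change of -0.42 (SE 0.07, limma adjusted p = 0.000333). Aif1 (-0.66) was lost without saline mouse 106 or 117 or DEX mouse 108 and in a fit of only the 8 control libraries. Of these markers, 4 rose without DEX mouse 112, 2 without saline mouse 106 or DEX mouse 108 and 0 without DEX mouse 101. Lyve1, a hyaluronan receptor of macrophages at the brain borders, had 31.0, 33.2, 38.5 and 31.7 with saline and 101, 95.1, 95.3 and 108 with DEX, groups well apart, and rose by 1.55 (SE 0.20, limma adjusted p = 1.48e-05). The other border macrophage markers with a row, Mrc1, Stab1, Cbr2 and Pf4, had log2 fold changes of 0.59, 0.47, -0.36 and -0.73 and were not called, although Mrc1 and Stab1 were called as rising in a fit of only the 8 control libraries. The summed level of the 5 was 756 to 1057 with saline and 1151 to 1490 with DEX, ranges that did not overlap.

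Receptors of growth factors moved in both directions. Of 28 neurotrophins, FGFs and their receptors, 5 rose and 4 fell (32.1% called, against 6.49% of all genes). Fgfr2 had 868, 804, 706 and 998 with saline and 558, 476, 430.3 and 591 with DEX, and Fgfrl1, a family member without a kinase, 464, 416, 394 and 534 and 353, 285, 261 and 302. The DEX libraries lay below the saline libraries in both, with log2 fold changes of -0.72 (SE 0.11, limma adjusted p = 0.000142) and -0.59 (SE 0.12, limma adjusted p = 0.00441). Fgfr1 and Fgfr3 rose by 0.48 and 0.53, and the ligands Fgf1 and Fgf2 by 0.32 and 0.60. Bdnf, the neurotrophin of synaptic plasticity, had 1042, 1027, 963 and 675 with saline and 649, 671, 599.5 and 804 with DEX, overlapping groups in which saline mouse 117 stood low. It was called (log2 fold change -0.43, SE 0.13, limma adjusted p = 0.0587), but not without saline mouse 106, 107 or 109 or DEX mouse 101, 108 or 112, nor in a fit of only the 8 control libraries. Its receptor Ntrk2 was not called (0.07). The number of this list that fell was 2 without saline mouse 106 or DEX mouse 108. Of 51 axon guidance genes, 7 fell and 0 rose (13.7% called, against 2.46% of all genes that fell), 37 had a negative sign and the median was -0.13. Ephb2, an ephrin receptor of excitatory synapses, had 655, 657, 668 and 572 with saline and 368, 448, 516 and 477 with DEX (log2 fold change -0.50, SE 0.09, limma adjusted p = 0.0014), the netrin receptor Unc5b 414, 353, 351 and 389.8 and 257, 305, 285 and 251 (-0.46). The ephrins Efna3 and Efna5 had log2 fold changes of -0.29 and -0.38. Slit2, a repulsive ligand, had a log2 fold change of -0.50, with overlapping groups, and was not called in a fit of the 8 control libraries alone or without saline mouse 106, 107 or 109 or DEX mouse 101 or 122.

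Of 25 monoamine receptors, 3 rose and 1 fell (16% called, against 6.49% of all genes). Adra2a, the alpha-2A adrenergic receptor that acts on prefrontal neurons, had 358, 355, 378 and 366 with saline and 879, 795, 747 and 826 with DEX. The groups were tight and far apart, and it rose 2.22-fold (log2 1.15, SE 0.16, limma adjusted p = 4.4e-05). Htr2a, the serotonin receptor of cortical pyramidal cells, had 1759, 1944, 2022 and 1274 and 2106, 2990.5, 2909 and 2509 and rose by 0.60, with the lowest value in saline mouse 117, without which it was not called, nor without DEX mouse 108. The number that rose was 1 without saline mouse 117 or DEX mouse 108, and 2 fell without saline mouse 117. Of 32 neuropeptides and their receptors, 1 rose and 3 fell (12.5% called). Crhr1, the receptor of corticotropin-releasing hormone, had 950.3, 941, 914 and 1005 with saline and 648, 620.3, 583 and 738 with DEX, and Cckbr, the brain cholecystokinin receptor, 2343, 2317, 2170.2 and 2274 and 1813, 1619, 1441 and 1895. Neither gene had overlapping groups, and their log2 fold changes were -0.56 (SE 0.09, limma adjusted p = 0.000339) and -0.44 (SE 0.08, limma adjusted p = 0.000778). Sstr2, a somatostatin receptor, had 331, 321, 279 and 391 and 91.4, 225, 249 and 187, with DEX mouse 101 far below the other DEX mice, and a log2 fold change of -0.89 that was not called without that mouse, without DEX mouse 122, without saline mouse 106, 107 or 117, or in edgeR. Vip, the vasoactive intestinal peptide, rose by 0.30, a call lost without saline mouse 106 or 117 or DEX mouse 101, 108 or 122, while Crh itself was not called (-0.08).

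Of 69 potassium channel subunits, 5 rose and 5 fell (14.5% called, against 6.49% of all genes), with 1 falling without saline mouse 106, 2 without DEX mouse 101 and 3 without saline mouse 117. Kcna5, a voltage-gated channel whose window held the GR element, had 48.6, 56.6, 46.4 and 97.4 with saline and 120.1, 154, 111 and 119 with DEX and rose by 1.06 (SE 0.22, limma adjusted p = 0.00352), Kcnk1, a two-pore channel, rose by 0.34 and Kcnj9, an inward rectifier opened by G proteins, had a log2 fold change of -0.30. Of 37 GABA and glutamate receptor subunits (8.11% called), Grik4 rose by 0.44 and Gria4 and Gabrd had log2 fold changes of -0.31 and -0.26, of which Gabrd was not called without saline mouse 106, 107 or 117 or DEX mouse 108, 112 or 122, and 3 fell without DEX mouse 112. The call of Gabrd was also lost with quantile normalization, with library size as a covariate, in edgeR and in a fit of only the 8 control libraries. Of 34 sodium, calcium and HCN channel subunits (5.88% called), Scn3b rose by 0.33 and Scn4b had a log2 fold change of -0.78, of which Scn4b was not called by edgeR or DESeq2 or without saline mouse 106, 109 or 117 or DEX mouse 101 or 122 and no member rose without DEX mouse 122. Of 51 protocadherins 0 rose and 1 fell (1.96% called), Pcdh20 with a log2 fold change of -0.46, and 0 fell without saline mouse 117. In this family 42 had a negative sign and the median was -0.15. Of 36 adenylyl cyclases, phosphodiesterases and PKA subunits, 0 rose and 1 fell (2.78% called), and 1 rose and 3 fell without saline mouse 117. Adcy8, a calcium-stimulated cyclase, had 530.5, 526, 553 and 873 with saline, where mouse 117 was highest, and 268, 337, 405 and 373 with DEX, and its log2 fold change was -0.82 (SE 0.16, limma adjusted p = 0.00196). Of 24 immediate early genes, which mark recent neuronal activity, 0 rose and 3 fell (12.5% called), and the 3 (Ier5, Nptx2 and Bdnf) were all lost without saline mouse 106, saline mouse 107 or DEX mouse 108, with 1 left without DEX mouse 101 or 112, and Ier5 was also lost without saline mouse 117, while 1 gene of the list rose without saline mouse 117. Fos, Egr1 and Arc were not called (-0.11, -0.10 and 0.37). Of 19 MAPK phosphatases, Sprouty and Spred genes 0 were called by limma, with 1 at an unadjusted p under 0.05, and 1 fell without saline mouse 117 or DEX mouse 112.

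Markers of neurons were called about as often as all genes (6.49%). Of 15 pyramidal neuron markers, Neurod6, a transcription factor of these cells, was called (6.67%). It had 2546, 2615, 2470.0 and 2228 with saline and 1224, 1827, 1913 and 1929 with DEX, lowest in mouse 101, and a log2 fold change of -0.54 (SE 0.13, limma adjusted p = 0.0133). Of the list, 2 fell without saline mouse 117 and 3 without DEX mouse 112. Of 16 markers of GABAergic interneurons Vip, given above, was called (6.25%), and of 8 striatal markers 1 rose and 0 fell. The summed pyramidal markers were 226300 to 305000 in saline and 256800 to 300700 in DEX libraries. At an unadjusted p under 0.05 in limma, 6 of the 15 pyramidal and 1 of the 16 interneuron markers changed, against 2154 of all 14074 genes. A negative sign was found in 11 of the 15 and 11 of the 16, against 7447 of all genes.

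Of 49 NF-kappaB subunits, inhibitors and inflammatory targets looked for, 25 had a row in the table. Il1b, Il6, Tnf, Ccl2 and Icam1 were among those without a row, so that a fall in them could not be seen. Of the 25, 4 rose and 0 fell (16% called, against 6.49% of all genes). They were Lcn2, given above, Nfkbia, the inhibitor that holds NF-kappaB in the cytosol, with 428, 518, 542 and 506 with saline and 851, 732, 658 and 699 with DEX, the adhesion molecule Vcam1, with 655, 684, 640.4 and 518 and 1110.0, 986, 906 and 1007, and the inducible cyclooxygenase Ptgs2, with 387, 391, 437 and 248 and 632, 517, 508 and 569. Groups did not overlap in any of them, and the log2 fold changes were 0.56 (SE 0.12, limma adjusted p = 0.00379), 0.69 (SE 0.13, limma adjusted p = 0.0021) and 0.63 (SE 0.15, limma adjusted p = 0.0116). Nfkbia is also on the list of GR targets. Of 52 interferon response genes looked for, 29 had a row. Of these 29 (3.45% called), Ifit3b, an antiviral RNA-binding protein, fell, with 127, 149, 136 and 128 with saline and 91.4, 91.5, 75.1 and 68.5 with DEX (log2 fold change -0.73, SE 0.13, limma adjusted p = 0.000727). It is nearly identical to its neighbour Ifit3, which was not called (-0.39), so reads may be split between them. Of the NF-kappaB list 1 fell without saline mouse 109, and of the interferon list 1 rose without saline mouse 117 or DEX mouse 112. Of 16 MHC class I and peptide loading genes and 7 MHC class II genes, 0 were called by limma in control mice, 0 had an unadjusted p under 0.05, and 0 were called in any alternative. Of 19 complement genes (5.26% called), the regulator Cd59a rose by 0.57, a call lost without saline mouse 106 or 109 or DEX mouse 101 and in a fit of only the 8 control libraries. In this list 2 rose without DEX mouse 112 and 1 fell without saline mouse 117.

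The largest falls were in pseudogenes, whose reads can come from their parent genes, so that their counts are uncertain. Of 401 pseudogenes, 30 fell and 3 rose (8.23% called, near the 6.49% of all genes, of which 2.46% fell and 4.03% rose). Gm13340, an unprocessed pseudogene, had 458, 1037, 1212 and 1736 with saline and 278, 204, 215 and 259 with DEX. Gm13339, of the same class, had 355, 519, 1026 and 723 with saline and 131, 188, 59.6 and 143 with DEX. In both the saline group was wide and did not overlap the DEX group. Their log2 fold changes were -2.07 (SE 0.27, limma adjusted p = 2.04e-05) and -2.33 (SE 0.43, limma adjusted p = 0.00115). Of 42 ribosomal protein pseudogenes 12 fell and 0 rose (28.6% called), 36 were negative and the median was -0.32. Rpl34-ps1 had 31.0, 35.7, 40.7 and 51.7 with saline and 9.14, 4.82, 5.96 and 8.13 with DEX, a log2 fold change of -2.36 (SE 0.31, limma adjusted p = 2.01e-05). Rpl36-ps2 had 10.8, 17.2, 14.7 and 35.2 with saline, while no DEX library held more than 3 reads of it, and it was at least 5.34-fold lower. The count for these pseudogenes was 7 without saline mouse 117 or DEX mouse 108 and 8 without saline mouse 109 or DEX mouse 101 or 112. Of the 82 cytosolic ribosomal protein genes themselves, 0 were called by limma, with 2 at an unadjusted p under 0.05, and their median was -0.01, while 1 fell without DEX mouse 101. Of 83 nuclear genes of oxidative phosphorylation (1.2% called, against 6.49% of all genes), Ndufa13 had a log2 fold change of -0.37, a call lost without saline mouse 106 or 117 or DEX mouse 108, 112 or 122. In this family 70 had a negative sign, with a median of -0.09, against 7447 of all 14074 genes with a negative sign. Of 31 mitochondrially encoded genes, 1 rose and 2 fell (9.68% called), while 22 had a positive and 8 a negative sign, with a median of 0.19. Their summed level was 1357000 to 1424000 with saline and 1433000 to 1925000 with DEX, highest in mouse 101, ranges that did not overlap. The 2 that fell were both lost without saline mouse 106, saline mouse 107, DEX mouse 112 or DEX mouse 122, 1 without saline mouse 109 or DEX mouse 108, and the 1 that rose without saline mouse 106 or 109 or DEX mouse 101 or 122. In a fit of only the 8 control libraries, the 1 that rose and 1 that fell were lost.

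The 12 largest falls without overlap, at a mean level of 100 counts or more, also included Wnt7a, a Wnt ligand, with 189, 210.3, 187 and 289 with saline and 111, 108, 63.2 and 124 with DEX, Ndp, a ligand of the same receptors in vessels, with 212, 143, 155 and 182 and 127, 85.5, 77.5 and 102, and Arhgef19, a guanine nucleotide exchange factor, with 525, 414, 427 and 397 and 289, 235, 224 and 268. In each gene the DEX group lay below the saline group. Their log2 fold changes were -1.12 (SE 0.22, limma adjusted p = 0.00261), -0.82 (SE 0.16, limma adjusted p = 0.00229) and -0.79 (SE 0.12, limma adjusted p = 0.000152). Ppp1r14a, a phosphatase inhibitor that oligodendrocytes and smooth muscle express, had a log2 fold change of -0.81 and was not called without saline mouse 117 or DEX mouse 122.

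The response of control mice was then set against that of the stressed mice, whose DEX and saline libraries are separate animals and share with the controls only the estimate of spread. DEX changed 755 genes in PS animals (5.36%), of which 386 rose (2.74%) and 369 fell (2.62%). In AS animals it changed 1234 (8.77%), of which 537 rose (3.82%) and 697 fell (4.95%). Of the 567 genes that rose in controls, 247 also rose in PS, which is 43.6% of the control list and 64.0% of the PS list, and 236 rose in AS, 41.6% and 43.9% of the lists. Of the 346 that fell, 97 fell in PS (28.0% and 26.3%) and 106 in AS (30.6% and 15.2%). In all 3 kinds of mice 275 genes were called in the same direction, 194 that rose and 81 that fell. The genes that rose in controls had a median log2 fold change of 0.48 there, 0.29 in PS and 0.23 in AS, and those that fell had -0.41, -0.15 and -0.16. As these genes were chosen for their change in controls, their medians do not compare the size of the responses. The 31 GR targets, a list drawn with earlier results of these data known, had medians of 0.65, 0.64 and 0.58.

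Whether a gene responded differently was tested through the difference between DEX effects. Against PS animals, 0 genes differed by limma (0%), with 1404 at an unadjusted p under 0.05, and 0 by edgeR and 23 by DESeq2. Against AS animals 49 genes differed (0.348%), and against the mean of both stressed groups 142 (1.01%), of which 74 were higher and 68 lower in controls. In edgeR these 2 counts were 77 and 94, and in DESeq2 439 and 497. The limma counts against AS and the stressed mean rested on single libraries: without DEX mouse 112 they were 664 and 835, and without saline mouse 117 they were 4 and 4. Without any one of the other 6 control libraries they were 6 to 24 and 10 to 133. Of the 913 genes called in controls, 73 differed from the stressed mean and 27 from AS, against 1.01% and 0.348% of all genes. These 913 were chosen by the same control libraries that enter the difference. A higher share among them is therefore partly set by that choice. Of the 31 GR targets, 0 differed by limma from PS, AS or the mean of both, against 0%, 0.348% and 1.01% of all genes. At shares this low, a count of 0 says little about the list. At an unadjusted p under 0.05 in limma, 3, 7 and 5 of the 31 differed, and 1404, 1902 and 2138 of all 14074 genes did. For Fkbp5 the log2 fold change was 2.26 in controls, 2.00 in PS and 1.91 in AS, and for Plin4 3.65, 4.59 and 4.34. Lcn2 rose by 4.76, 2.21 and 2.41, a difference from the stressed mean of 2.45 (SE 0.70, limma adjusted p = 0.111) that was not called.

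**Figure D5:**
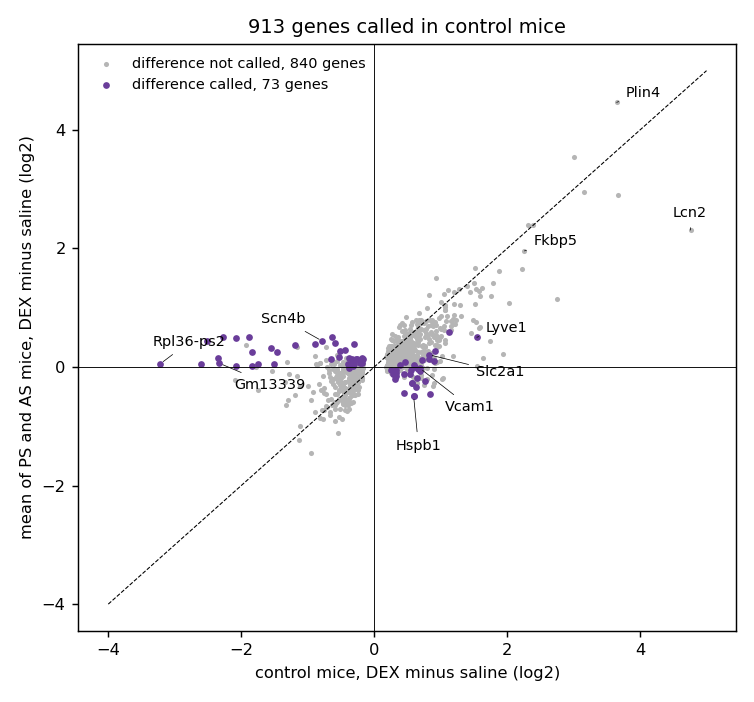
DEX minus saline (log2) in control mice, horizontal, against the mean of the DEX effects in PS and AS mice, vertical, for the 913 genes called in control mice. Purple points are the 73 genes whose difference was called, the dashed line marks equal effects, and lying near the horizontal zero line is partly set by the choice of genes. Fkbp5 lies near the dashed line, Plin4 above it, and Gm13339 and Vcam1 near zero on the vertical axis, while the place of Rpl36-ps2, with few counts, depends on the pseudocount.

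Of the named genes, some had a higher DEX effect in controls than in stressed mice. Lyve1 had log2 fold changes of 1.55 in controls, 0.73 in PS and 0.27 in AS, and differed from the stressed mean by 1.04 (SE 0.24, limma adjusted p = 0.0762). Vcam1 had 0.69, 0.00 and -0.04, a difference of 0.71 (limma adjusted p = 0.0762), and Hspb1 0.59, -0.31 and -0.66, a difference of 1.08 (limma adjusted p = 0.0646). H2-Eb1, an MHC class II chain, and Mmrn2, a matrix protein of vessels, were not called in controls (0.22 and -0.05), and had -0.85 and -0.93 in PS and -1.31 and -1.53 in AS. Their differences from the stressed mean were 1.30 and 1.18 (limma adjusted p = 0.0782 and 0.0965). The MHC class II list had a median log2 fold change of -0.16 in controls, -0.85 in PS and -0.96 in AS, with 0, 4 and 5 of its 7 genes falling, and 1 of the 7 differed by limma from the stressed mean, as did 1.01% of all genes. The interferon list had medians of -0.01, -0.37 and -0.40, with 1, 9 and 8 of 29 falling, and 1 differed. Of all genes, 2.46% fell in controls, 2.62% in PS and 4.95% in AS. Endothelial markers had medians of 0.35, -0.27 and -0.59, and 1 of 16, Slc2a1, differed. At an unadjusted p under 0.05 in limma, 6 of these 16 differed from PS, 16 from AS and 15 from the stressed mean. Of all 14074 genes, 1404, 1902 and 2138 did so. At that level 13 of the 29 interferon genes and 4 of the 7 MHC class II genes differed from the stressed mean. In the other direction were 7 of the 42 ribosomal protein pseudogenes, among them Rpl34-ps1 with a difference of -2.51 (limma adjusted p = 0.00585), Scn4b, a sodium channel subunit, at -1.22 (limma adjusted p = 0.0762) and the myelin gene Mag at -0.78 (limma adjusted p = 0.0915). Leaving out saline mouse 117 reduced the 142 differences to 4, and whether the marker levels of single libraries played a part in these differences was not tested.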

How the data were processed

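RNA from the PFC of 24 mice was sequenced after poly(A) selection with a strand-specific kit, 1 library per mouse. According to the labels and methods, the authors trimmed reads with fastp (0.20.1), aligned them to mm10 with HISAT2 (2.2.1), counted them on GENCODE genes with featureCounts of Subread and deposited 1 table of counts divided by DESeq2 size factors, which are the normalized counts (a signal, not raw counts) used here. Whole reads were recovered from the steps of the deposited values for 100% of them (tolerance 0.01 reads) and gave the depth of 21121869 to 59439645 reads, with the control libraries at the low end. Depth limits genes with few reads most. Separate tables of the authors' comparisons, with fold changes and p-values, were used only for gene class and position, which are in mm10.

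For each gene, log2(normalized count + 1) was fitted with limma (3.58.1) with a trend, over all 24 libraries with 1 mean per group, so that all 6 groups share the estimate of spread. P-values were adjusted by Benjamini-Hochberg over 14074 genes and called under 0.1, and no filter on low values was applied. Differences between DEX effects were contrasts of the same fit. Alternatives were a pseudocount of 8, a mean of at least 100, at least 10 reads in each library, quantile normalization, library size as a covariate, edgeR (4.0.16) and DESeq2 (1.42.0) on the recovered reads, the 8 control libraries alone, and each control library left out. On simulated data, limma called 71% of genes changed by 0.5 and 98% of those changed by 1.0 on the log2 scale in the control comparison, and 13.8% of its calls were false. The simulation changed 100 of 14074 genes at each size. It drew genes independently and held no shift shared by the genes of a library, so these shares need not hold for the real calls. Groups are those of the labels, and no batch is given in the labels. The mice of a group are separate animals. Where at most 3 reads were in each library of a group, a bound was computed with 3 reads in each library. Groups were counted as not overlapping where every DEX library lay above, or below, every saline library.

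The genes named were 5 checks of the labels, the 12 largest rises and falls with a mean of at least 100 and without overlap, the 8 largest without that minimum, the 10 smallest p, up to 5 called members per list (or the most abundant member where 0 were called), and up to 3 genes each way per difference. Other list members are given as values beside them and were picked from the lists after values were seen. Gene lists and markers came from general knowledge, and all of them were chosen with earlier results of these data known. Some genes that these rules or lists hold are not reported here by name, though counts include them.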

Additional observations from a re-analysis of the deposited data

Results flagged for a closer look

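In 18 of 312 sets of 4 control libraries of 1 group and 1 named gene, the highest or lowest library stood apart from the others by Dixon's gap to range ratio, and chance gives about 1 in 20. Among saline libraries, mouse 109 was high for Fkbp5 (888 normalized counts, ratio 0.903) and Plin4 (170, 0.963). Mouse 117 was low for Ephb2 (572, 0.865) and Gstm2 (45.8, 0.911) and high for Adcy8 (873, 0.922) and Gm49207 (10.6, 0.855). Mouse 107 was high for Ppp1r3c (634, 0.888) and low for Kcnn2 (952, 0.892), and mouse 106 high for S1pr1 (3959, 0.834). For Ppp1r3c the saline values were nearly the same, so that its ratio rests on a gap of a few counts. Among DEX libraries, mouse 101 was high for Wipf3 (15126, 0.875) and Col4a1 (2550, 0.867) and low for Neurod6 (1224, 0.856). Mouse 108 was low for Pkp2 (448, 0.947) and the mitochondrial tRNA gene mt-Te (13.2, 0.879). Mouse 122 was low for Gm42891 (4.65, 0.856) and high for Gm14303 (199, 0.837), Rpl17-ps8 (12.8, 0.843) and Pcdh20 (401, 0.918).

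The DEX effect of some named genes differed between control and stressed mice in limma's test of the difference, given here as the log2 difference, control minus AS and control minus the mean of PS and AS. It was higher in controls for Lyve1 (1.27 and 1.04), Slc2a1 (0.85 and 0.61), Hspb8 (0.78 and 0.68), Hspb1 (1.25 and 1.08), Ramp2 (0.78 and 0.60), the choline transporter-like gene Slc44a5 (0.63 and 0.57), the cyclophilin gene Ppic (1.60 and 1.57), H2-Eb1 (1.53 and 1.30) and Mmrn2 (1.48 and 1.18). Against the stressed mean alone it was higher for Vcam1 (0.71), Abcg2 (0.56), Slc39a12 (0.35) and the glutathione transferase gene Gstm2 (1.29), and lower for Mag (-0.78), Gm14303 (-1.57) and Rpl17-ps3 (-2.57). It was lower in both for Scn4b (-1.40 and -1.22) and for the pseudogenes Rpl34-ps1 (-3.17 and -2.51), Gm13340 (-2.42 and -2.09), Gm13339 (-3.12 and -2.39), Rpl19-ps7 (-3.20 and -2.95), Rpl17-ps8 (-3.40 and -2.79), Rpl35a-ps2 (-1.69 and -1.71) and Gm11942 (-2.79 and -2.65). The values of Rpl36-ps2 (-3.21 and -3.27) rest on few reads and on the pseudocount. Both differences of Rpl34-ps1 and Gm13340 were called in each alternative that gave them a value. Every other gene given here lost a difference under some alternative. Against AS and the stressed mean, Ramp2 was lost in 10 and 11 of 15 alternatives, Slc2a1 in 8 and 10, and Mmrn2 in 10 and 9. Against the stressed mean, the limma adjusted p of Slc2a1, Ramp2 and Slc39a12 was 0.0998, close to the threshold.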

How the results depend on the processing

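The count of 913 genes in control mice was 745 to 1006 under 8 other settings and 611 to 953 without single libraries, and rising genes made up 60.4% to 69.0% of the calls. Of 146 called genes that are named by rule, 100 were called under all alternatives that gave them a value, 46 were lost under at least 1, 17 of these in a fit of only the 8 control libraries, and 0 changed sign. Of the 10 that were not called, 4 changed sign. On the log2 scale, H2-Eb1 was -0.0190 without saline mouse 106 (to 0.39 without DEX mouse 108), Ctss -0.0498 without DEX mouse 101 (to 0.14 without DEX mouse 112), Rpl4 0.0180 without saline mouse 117 and 0.0091 without DEX mouse 112 (to -0.097 without DEX mouse 101), and Mmrn2 0.053 without saline mouse 109 and 0.13 without DEX mouse 112 (to -0.14 without DEX mouse 101). The counts of differences between DEX effects depended on the setting. Against PS (0) the count was 9 with a pseudocount of 8, 4 with quantile normalization, 23 in DESeq2 and 0 to 2 without single libraries. Against AS (49) it was 1 with a mean of at least 100, 31 with quantile normalization, 7 with library size as a covariate, 77 in edgeR, 439 in DESeq2 and 4 to 664 without single libraries. Against the stressed mean (142) it was 62 with a mean of at least 100, 87 with at least 10 reads in each library, 60 with quantile normalization, 94 in edgeR, 497 in DESeq2 and 4 to 835 without single libraries. For a minimum of 100 counts or 10 reads fewer genes were tested, and otherwise the cause was not tested. No gene of the ribosomal protein pseudogenes was called with a mean of at least 100, which removes most of them. No paired analysis was possible because the mouse numbers do not recur across groups. Depth limits the pseudogenes and other genes with few reads most.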
